A study of Mus musculus with 6 samples.

Results

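The 8 genes described here carry the signal that makes the ureteric bud branch in the developing kidney: Gdnf, Ret, Gfra1, Etv4, Etv5, Spry1, Spry2 and Spry4. They were taken by gene symbol from the deposited table of 24532 genes, and each had 1 row. Bulk RNA sequencing had been made of mouse kidney and ureter at PN1 (postnatal day 1), and of the 6 libraries 4 were kidney (2 Ahnak KO and 2 WT) and 2 were ureter (1 of each genotype). Ahnak encodes a very large scaffold protein, and the study asked how its loss changes gene expression in the urinary tract. The KO mice carried a disrupted exon 5 of Ahnak, 2 to 4 kidneys or ureters were collected for RNA, and how many entered each library was not given in the sources used here. Strain, sex and litter were likewise not given. The titles number the ureter libraries as kidney replicate 3, whereas the tissue source and the column headings of the table read ureter.

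During kidney development GDNF is secreted by the cap mesenchyme around the ureteric bud tips and binds its co-receptor GFRA1, which brings it to the receptor tyrosine kinase RET on the tip cells. RET then activates the RAS to ERK and PI3K pathways and raises expression of the ETS transcription factors Etv4 and Etv5, which drive tip genes and branching. The Sprouty proteins Spry1, Spry2 and Spry4 are induced by receptor tyrosine kinases, including RET and the FGF receptors, and dampen the ERK arm as feedback inhibitors. In the mouse the tips and the cap mesenchyme are still present in the first days after birth.

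The tissue labels were checked against marker genes. The uroplakin Upk1b, made by urothelium, had 1901 and 2287 CPM (counts scaled to a common library total, with TMM factors over the 6 libraries) in the ureter and between 14.3 and 16.3 CPM in the kidney. Aqp2, the collecting duct water channel, had between 255 and 374 CPM in the kidney and 0 counts in each ureter library, and the proximal tubule transporter Slc34a1 was likewise at 0 in the ureter. The libraries held 36410246 to 66095616 estimated counts, the Ahnak KO ureter being the smallest. Its share of counts on the ribosomal transcript Rn45s was 8.06%, against 0.496% to 0.632% in the other 5 libraries. Ahnak itself had 139 and 130 CPM in the Ahnak KO kidney and 183 and 189 CPM in the WT kidney. In the ureter it had 635 CPM in Ahnak KO and 727 CPM in WT. The kidney difference was -0.47 on the log2 scale (SE 0.096). By edgeR's quasi-likelihood test it had an unadjusted p of 0.0027 and an adjusted p of 0.9999. Gene totals do not show whether exon 5 is lost.

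RefSeq promoter windows of 300 bases (250 before and 50 after a start, GRCm38.p6) were used for 5 of the 8 genes, as 7 windows. The letters CCGGAA and AGGAAG, both containing the GGAA core that ETS factors such as ETV4 and ETV5 bind, were searched on both strands. The motif CCGGAA was in 2 of the 7 windows and in 14.9% of all 32851 windows, and AGGAAG was in 2 of the 7 and in 35.4% of all. Either motif was in 4 of the 7 windows and in 45.2% of all windows. Windows are shown for the ligand and its co-receptor, both higher in the kidney, and for the pair of Sprouty genes that differed from each other in the ureter; capitals mark a match on either strand. The windows are Gdnf at chr15:7813477-7813776 on the plus strand, Gfra1 at chr19:58455349-58455648 on the minus strand, Spry1 at chr3:37639697-37639996 on the plus strand and Spry2 at chr14:105896770-105897069 on the minus strand, each read 5′ to 3′ along the gene.
Gdnf: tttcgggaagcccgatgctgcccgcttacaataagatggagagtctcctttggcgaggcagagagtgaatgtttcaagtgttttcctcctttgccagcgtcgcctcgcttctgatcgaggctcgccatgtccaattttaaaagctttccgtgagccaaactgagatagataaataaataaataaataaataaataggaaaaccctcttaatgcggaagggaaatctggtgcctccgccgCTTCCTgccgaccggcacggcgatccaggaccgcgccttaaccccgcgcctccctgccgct
Gfra1: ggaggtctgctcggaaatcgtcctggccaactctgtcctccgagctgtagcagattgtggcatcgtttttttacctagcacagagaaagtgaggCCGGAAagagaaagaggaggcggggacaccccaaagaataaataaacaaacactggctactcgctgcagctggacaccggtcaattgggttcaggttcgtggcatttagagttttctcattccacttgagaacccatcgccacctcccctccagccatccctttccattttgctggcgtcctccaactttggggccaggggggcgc
Spry1: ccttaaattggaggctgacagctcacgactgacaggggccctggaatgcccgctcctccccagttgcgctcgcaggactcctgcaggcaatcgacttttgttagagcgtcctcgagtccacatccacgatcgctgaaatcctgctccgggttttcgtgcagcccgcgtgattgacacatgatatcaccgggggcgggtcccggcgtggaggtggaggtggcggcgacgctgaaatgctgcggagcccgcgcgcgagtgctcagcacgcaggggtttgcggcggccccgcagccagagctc
Spry2: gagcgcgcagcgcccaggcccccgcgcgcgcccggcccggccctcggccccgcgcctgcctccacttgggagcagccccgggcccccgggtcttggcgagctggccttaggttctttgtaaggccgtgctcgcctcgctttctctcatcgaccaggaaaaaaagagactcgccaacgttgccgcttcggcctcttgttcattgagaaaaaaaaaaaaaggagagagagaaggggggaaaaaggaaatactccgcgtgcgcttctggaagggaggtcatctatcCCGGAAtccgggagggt
The Gdnf window shown held AGGAAG on the opposite strand while the other Gdnf window, at chr15:7809798-7810097, held neither motif, Gfra1 and Spry2 held CCGGAA, and Spry1 held neither motif. A match is a run of letters and was not tested as a binding site.

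In the comparison of the tissues, 6 of the 8 genes were higher in the kidney than in the ureter and none was higher in the ureter. The ligand, both receptor components and both ETS factors were among the 6, with Spry4 as the Sprouty gene. The call was an adjusted p under 0.05 by edgeR's quasi-likelihood test on all 6 libraries with genotype as a term, and over all 16873 genes tested 23.7% were called higher in the kidney and 21.4% higher in the ureter. The median log2 fold change of the 8 genes was 3.18, against 0.08 over all genes tested. In 7 of the 8 genes each kidney library lay above each ureter library. The share of all genes separated in this way is not given here, so that count is a description only. Since whole tissues were sequenced, fewer cells of a type and less RNA per cell cannot be told apart in any of these differences. Where nothing says that the libraries came from separate litters, a p-value measures only the spread between these libraries, and the 2 ureter libraries differed in genotype. In the column headings each ureter library carries the same number as kidney replicate 2 of its genotype. Whether those tissues came from the same animals was not given, and the fit took all 6 libraries as independent.

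**Figure D1:**
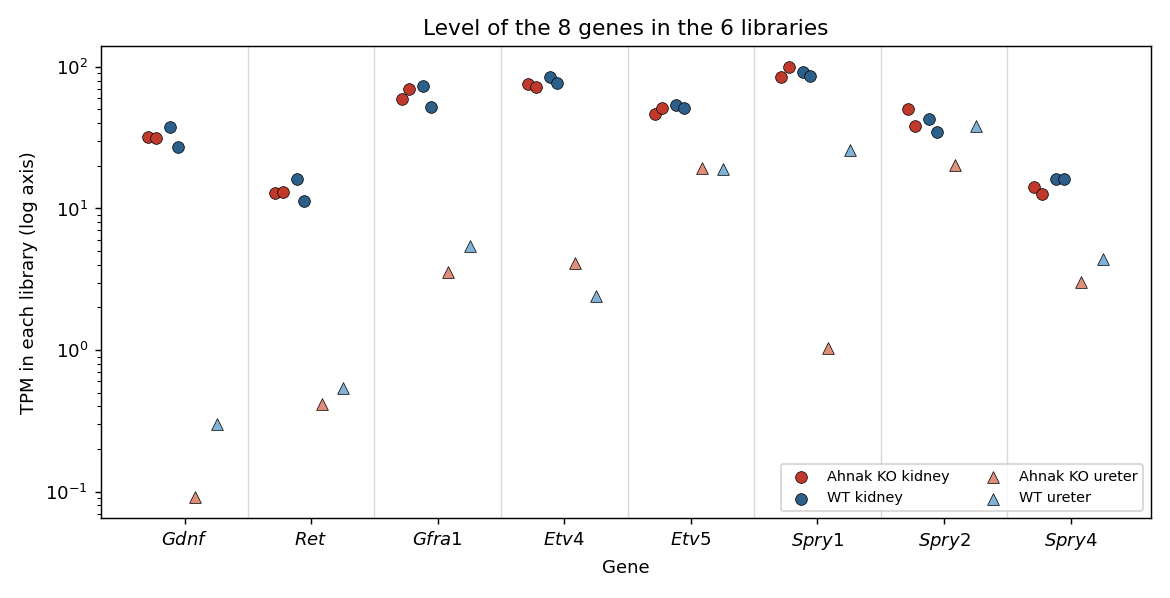
TPM (the deposited length-corrected share of transcripts) of each of the 8 genes in each library on a log axis, circles for kidney and triangles for ureter, red tones for Ahnak KO and blue tones for WT. Every kidney point lies above every ureter point for 7 genes, Spry2 overlaps, and the Ahnak KO ureter point of Spry1 (1.03 TPM) lies far below the WT ureter point (25.8 TPM).

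Gdnf, the ligand (chr15:7810846-7837575, plus strand, GENCODE M21 on GRCm38), showed the largest tissue difference of the 8 genes. It had 65.1 and 66.7 CPM in the Ahnak KO kidney, 77.8 and 55.7 CPM in the WT kidney, 0.303 CPM in the Ahnak KO ureter and 0.777 CPM in the WT ureter. The ureter values rest on 9 and 40 counts, against at least 3397 counts in any kidney library. Gdnf was 117-fold higher in the kidney (log2 fold change 6.87, SE 0.35, adjusted p = 4.0e-05 by edgeR's quasi-likelihood test).

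Ret, the signalling receptor (chr6:118151745-118197718, minus strand), was low but present in the ureter. It had 41.5 and 44.7 CPM in the Ahnak KO kidney, 52.9 and 37.4 CPM in the WT kidney, and 2.02 and 2.25 CPM in the Ahnak KO and WT ureter. The kidney libraries were all far above both ureter libraries, which lay close together. The difference was 20.6-fold (log2 fold change 4.37, SE 0.22, adjusted p = 3.7e-05 by edgeR's quasi-likelihood test).

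Gfra1, the co-receptor (chr19:58235604-58455909, minus strand), was also present in the ureter. It had 128 and 156 CPM in the Ahnak KO kidney, 158 and 113 CPM in the WT kidney, 10.9 CPM in the Ahnak KO ureter and 14.7 CPM in the WT ureter. Its kidney values were 10.9-fold higher than the ureter values (log2 fold change 3.45, SE 0.23, adjusted p = 9.2e-05 by edgeR's quasi-likelihood test). Gfra1 shares its locus with the predicted genes Gm46650 and Gm10007, and how the deposited counts were split among overlapping genes was not given.

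The ETS factors Etv4 and Etv5, close relatives that act together downstream of RET, were both higher in the kidney, and whether their ratios differ from each other was not tested. Etv4 (chr11:101769742-101785371, minus strand) had 81.3 and 81.1 CPM in the Ahnak KO kidney, 90.7 and 82.8 CPM in the WT kidney, 6.25 CPM in the Ahnak KO ureter and 3.24 CPM in the WT ureter. It was 18.3-fold higher in the kidney (log2 fold change 4.19, SE 0.28, adjusted p = 9.4e-05 by edgeR's quasi-likelihood test). Etv5 (chr16:22381309-22439719, minus strand) kept about the same level in both ureter libraries. It had 82.3 and 94.7 CPM in the Ahnak KO kidney, 95.7 and 91.3 CPM in the WT kidney, 48.2 CPM in the Ahnak KO ureter and 41.7 CPM in the WT ureter. Its kidney libraries stood above the ureter libraries by 2.03-fold (log2 fold change 1.02, SE 0.12, adjusted p = 0.00099 by edgeR's quasi-likelihood test).

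The 3 Sprouty genes each gave another tissue pattern. Spry1 (chr3:37639947-37644598, plus strand) had 95.8 and 112 CPM in the Ahnak KO kidney, 103 and 93.9 CPM in the WT kidney, 1.68 CPM in the Ahnak KO ureter and 36.8 CPM in the WT ureter. Although each kidney library exceeded each ureter library, the ureter libraries lay so far apart that the log2 fold change of 2.91 (SE 0.996) missed the threshold with an adjusted p of 0.054 by edgeR's quasi-likelihood test. In fits with a single ureter library the log2 fold change was 5.95 with the Ahnak KO ureter and 1.42 with the WT ureter, and each of these was past the threshold. In those fits the lone ureter library is assumed to vary like the kidney libraries, so the distance between the ureter libraries does not enter.

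Spry2 (chr14:105891947-105896819, minus strand) was the member whose tissues overlapped. It had 48.6 and 38.4 CPM in the Ahnak KO kidney, 41.5 and 33.4 CPM in the WT kidney, 27.5 CPM in the Ahnak KO ureter and 45.7 CPM in the WT ureter. The WT ureter exceeded 3 of the 4 kidney libraries and the Ahnak KO ureter lay below all of them. The log2 fold change was 0.16 (SE 0.24, adjusted p = 0.63 by edgeR's quasi-likelihood test), and it was -0.29 when the Ahnak KO ureter library was left out. Spry4 had 30.2 and 28.2 CPM in the Ahnak KO kidney, 34.2 and 34.6 CPM in the WT kidney, and 9.05 and 11.6 CPM in the Ahnak KO and WT ureter. Its ureter libraries lay well below the kidney libraries, by 3.09-fold (log2 fold change 1.63, SE 0.14, adjusted p = 0.00024 by edgeR's quasi-likelihood test).

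Summed marker genes of several cell types differed between the tissues, and none of the marker lists was of ureteric tip cells. The 12 nephron progenitor markers, which cap mesenchyme expresses, summed to between 685 and 688 CPM in the kidney libraries and to 160 and 202 CPM in the Ahnak KO and WT ureter. Six2, the defining gene of that list, had 0 counts in the Ahnak KO ureter and 1.07 CPM in the WT ureter. Osr1, of the same list, went the other way, at 69.6 and 87.0 CPM in the Ahnak KO and WT ureter. In the kidney Osr1 had between 14.6 and 19.6 CPM. Itga8, also of that list, had 29.8 and 45.8 CPM in the Ahnak KO and WT ureter, against 172 to 204 CPM in the kidney. Cited1, another gene of the list, had 5.14 and 0.466 CPM in the Ahnak KO and WT ureter, against 55.7 to 59.4 CPM in the kidney. Which cells gave the ureter sums was not tested. The 16 ureteric trunk and collecting duct markers summed to between 1471 and 1796 CPM in the kidney, and to 6202 and 3628 CPM in the Ahnak KO and WT ureter. That list includes keratins shared with urothelium, and Aqp2, Avpr2, Calb1, Foxi1 and Atp6v1b1 were at 0 in both ureter libraries. The 10 smooth muscle markers summed to between 602 and 706 CPM in the kidney and to 7262 and 8041 CPM in the Ahnak KO and WT ureter. The part of these cell types in the tissue differences was not tested.

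Levels of different genes were compared per length, in TPM. In the kidney the mean order was Spry1 (90.8 ± 6.33 TPM, SD, n = 4), Etv4 (77.1 ± 5.05), Gfra1 (63.5 ± 9.53), Etv5 (50.8 ± 3.20), Spry2 (41.4 ± 6.74), Gdnf (32.1 ± 4.37), Spry4 (14.8 ± 1.68) and Ret (13.3 ± 2.05). Only the steps from Spry1 to Etv4 and from Gdnf to Spry4 separated all 4 libraries of the neighbouring genes, and the other neighbours overlapped. In the ureter the order was another, with Spry2 highest in both libraries (20.1 TPM in Ahnak KO, 38.3 TPM in WT) and Gdnf lowest (0.0919 and 0.303 TPM). Etv5 followed Spry2 closely in the Ahnak KO ureter at 19.3 TPM and stood at 19.0 TPM in the WT ureter. Spry1 ranked 2 of 8 in the WT ureter and 6 of 8 in the Ahnak KO ureter.

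The comparison of Ahnak KO and WT kidney asked whether loss of Ahnak was accompanied by a change of this signal. No gene of the 8 was called, and none had an unadjusted p under 0.05 by edgeR's quasi-likelihood test. Over all 16481 genes tested, 227 had an unadjusted p under 0.05 and 0.0121% were called after Benjamini-Hochberg adjustment. DESeq2 and limma called none of the 8 either. The log2 fold changes lay between -0.24 and 0.22, with a median of -0.04 against 0.00 over all genes.

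Gdnf (log2 fold change -0.02, SE 0.18), Ret (-0.07, SE 0.19) and Gfra1 (0.06, SE 0.18) had estimates smaller than their errors. Their CPM values, given above, overlapped between the genotypes, the WT kidney libraries marking both the highest and the lowest value in each case. The ETS factors gave -0.09 (SE 0.11) for Etv4 and -0.08 (SE 0.12) for Etv5. Spry1 gave 0.07 (SE 0.12) and Spry2 gave 0.22 (SE 0.18). The estimate farthest from 0 was that of Spry4 at -0.24 (SE 0.13, unadjusted p = 0.108 and adjusted p = 0.9999 by edgeR's quasi-likelihood test).

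In Etv4 and Spry4 both Ahnak KO kidney libraries were below both WT kidney libraries, and in no member were both above. Over all genes tested 13.5% had both Ahnak KO libraries lower and 12.8% had both higher, so 2 and 0 of 8 are near these shares. For Etv4 the gap between the nearest libraries was small, 81.3 CPM in Ahnak KO against 82.8 CPM in WT. For Spry4 it was 30.2 CPM against 34.2 CPM.

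**Figure D2:**
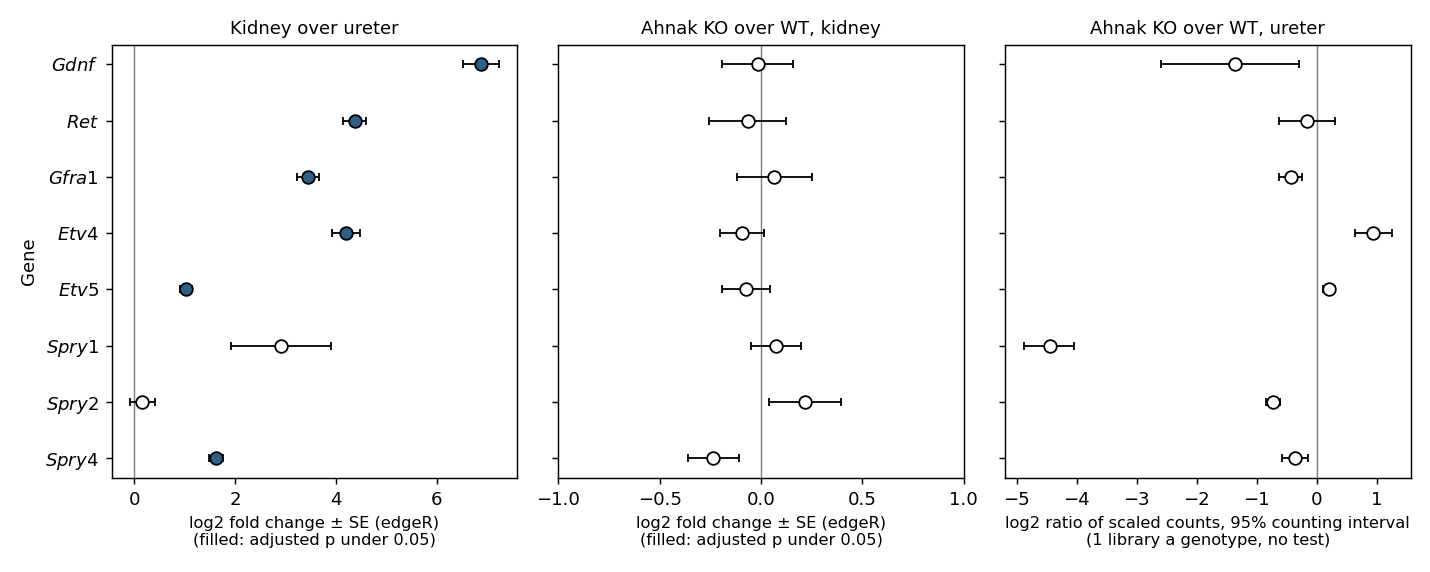
Log2 fold changes of the 8 genes for kidney over ureter (left) and Ahnak KO over WT in the kidney (middle), with standard errors and filled points for an adjusted p under 0.05, and the log2 ratio of scaled counts for Ahnak KO over WT in the ureter with its 95% counting interval (right). The left panel runs up to 6.87 for Gdnf, the kidney genotype estimates stay between -0.24 and 0.22, and in the ureter Spry1 stands apart at -4.45.

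The kidney libraries differed among themselves in a way that cut across genotype. Gdnf, Ret and Gfra1 had the same order, from WT replicate 1 through Ahnak KO replicates 2 and 1 to WT replicate 2, with the highest value 1.40, 1.41 and 1.40 times the lowest. None of the other members had that order. The share of all genes with it is not given here, so the match is a description only. The collecting duct gene Aqp2 had that order too (1.47 times), and so had the thick ascending limb gene Umod, with 142 CPM in WT replicate 1 and 101 CPM in WT replicate 2. Other markers did not share it: the collecting duct gene Calb1 and the summed collecting duct markers were highest in Ahnak KO replicate 2 and lowest in WT replicate 2, and the ureteric tip gene Wnt11 was highest in WT replicate 1 (66.04 CPM) and lowest in Ahnak KO replicate 2 (50.9 CPM).

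Proximal tubule genes were high in other libraries. Lrp2, the endocytic receptor of the proximal tubule, had 477 and 476 CPM in WT replicate 2 and Ahnak KO replicate 1, and 297 and 295 CPM in WT replicate 1 and Ahnak KO replicate 2. The progenitor gene Six2 had 122 and 118 CPM in WT replicate 2 and Ahnak KO replicate 1, and 100.4 and 100.3 CPM in WT replicate 1 and Ahnak KO replicate 2. Etv4, Etv5 and Spry1 spread by 1.12, 1.16 and 1.19 times from lowest to highest kidney library, less than Gdnf, Ret and Gfra1, and Spry2 by 1.46 times. The part of tissue composition in this spread was not tested.

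**Figure D3:**
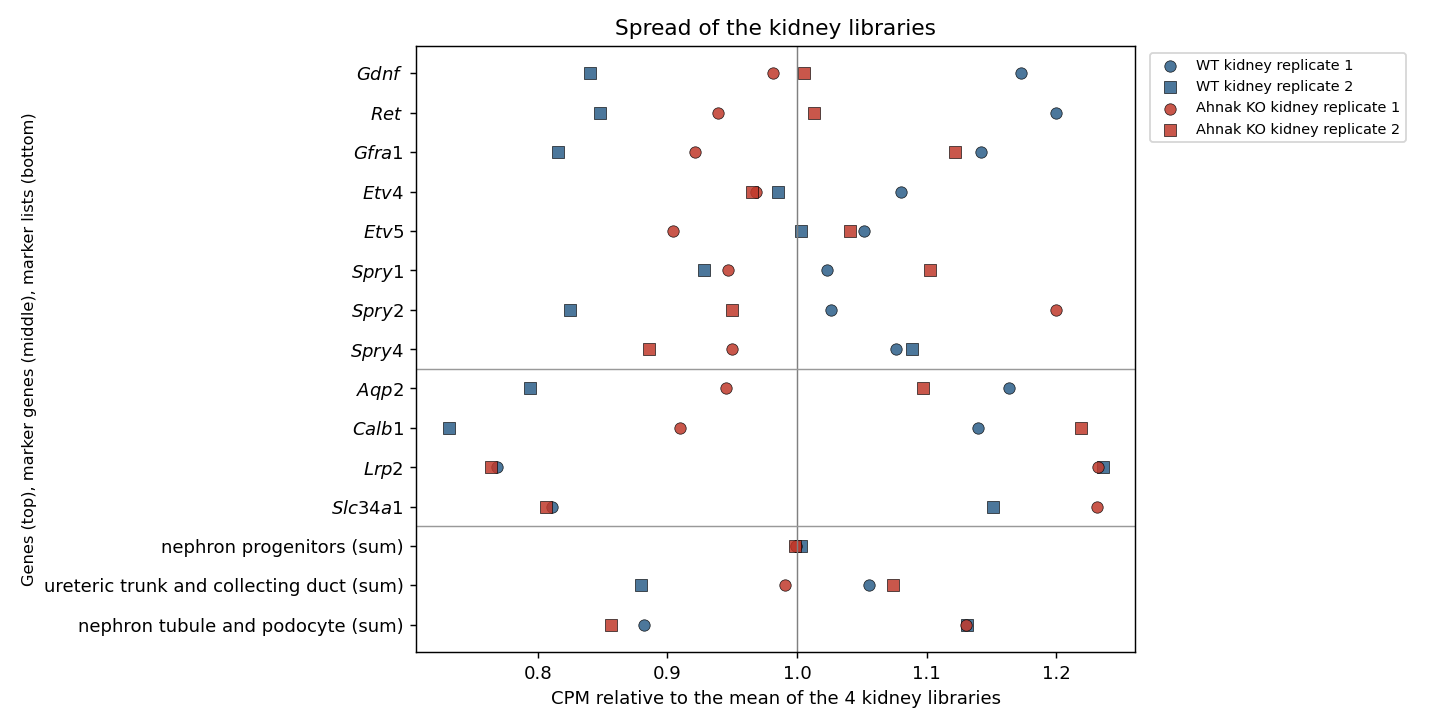
CPM of each of the 8 genes, of 4 marker genes and of 3 summed marker lists in each kidney library, relative to the mean of the 4 kidney libraries (blue for WT, red for Ahnak KO, circles for replicate 1 and squares for replicate 2). Gdnf, Ret, Gfra1 and Aqp2 share 1 order of the libraries, with WT replicate 1 highest and WT replicate 2 lowest, whereas Lrp2 and Slc34a1 are high in WT replicate 2 and Ahnak KO replicate 1.

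In the ureter the genotypes had 1 library each, so the values describe those libraries and the comparison was made without a test. On the log2(CPM + 0.5) scale, which understates the change of low genes, 1 of the 8 genes was lower by more than 2-fold in the Ahnak KO ureter and none was higher by more than 2-fold. Over the 16117 genes with at least 10 counts in a ureter library, 5.75% were lower and 4.5% were higher past that fold on that scale. These shares are 926 genes lower and 725 higher with TMM scaling, and scaling by library size alone gave 1308 lower and 543 higher. With TMM scaling 6 of the 8 genes were lower in Ahnak KO, with a median of -0.38 against -0.02 over all genes. How large a share of all genes was lower by any amount is not given here, so the count is a description only.

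The member past 2-fold on that scale was Spry1. It had 50 counts in the Ahnak KO ureter and 1894 counts in the WT ureter, which after scaling is 21.9-fold lower in the Ahnak KO ureter, with an exact 95% interval of 16.5 to 29.6 that covers counting error only. On the log2(CPM + 0.5) scale the ratio was -4.05. The 4 kidney libraries, in contrast, held between 5723 and 7366 counts of Spry1 with no separation of the genotypes.

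A further fit, chosen after seeing the data, assumed that each lone ureter library varies like the kidney libraries. There Spry1 had a log2 fold change of -4.45 (SE 0.23, adjusted p = 0.0085 by edgeR's quasi-likelihood test) and was the single member called among 70 genes. The difference of its genotype effect, ureter minus kidney, was -4.52 (SE 0.26, adjusted p = 0.015 in the same edgeR fit), with 19 of 16873 genes called. These p-values hold only under that assumption. Beside this result, the ureter libraries differed in the Rn45s share (8.06% against 0.626%), in summed ureteric trunk and collecting duct markers (6202 CPM in Ahnak KO against 3628 CPM in WT), in summed nephron progenitor markers (160 against 202 CPM), in summed striated muscle markers (123 CPM in Ahnak KO against 211 CPM in WT), in summed blood cell markers (545 against 745 CPM) and in summed urothelial markers (8682 against 7601 CPM). The part of these differences in the Spry1 value was not tested. Leaving Rn45s out of the counts gave -4.07, and scaling by library size alone gave -4.22.

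The other members moved less in the ureter. Spry2 had 817 counts in Ahnak KO and 2354 in WT, a scaled ratio of 1.66-fold lower in Ahnak KO (95% counting interval 1.54 to 1.80). Spry4 had 269 and 598 counts, 1.28-fold lower (1.11 to 1.49). All 3 Sprouty genes were thus lower in the Ahnak KO ureter library, by very unequal amounts.

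Upstream, Gdnf had 9 counts against 40 (2.57-fold lower in Ahnak KO, 1.23 to 6.01), a ratio that few counts support. Gfra1 had 323 against 756 counts (1.35-fold lower, 1.18 to 1.54), and Ret had 60 against 116 counts (1.12-fold lower, 0.81 to 1.55), an interval that includes no difference. Etv4 went the other way, with 186 counts in Ahnak KO and 167 in WT, a scaled ratio of 1.93-fold higher in Ahnak KO (1.56 to 2.39). Etv5 had 1433 and 2146 counts, 1.16-fold higher in Ahnak KO after scaling (1.08 to 1.24). In the added fit Etv4 had an adjusted p of 0.098 and the remaining members had adjusted p-values of at least 0.21 by edgeR's quasi-likelihood test.

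The wider pathway was read from 5 gene lists. Among the other GDNF family ligands and co-receptors, 8 of 10 could be tested, 2 were higher in the kidney and 4 in the ureter. Their median log2 fold change was -0.77, against 3.18 for the 8 genes and 0.08 over all genes. Ncam1, a cell adhesion molecule that can serve as an alternative GDNF receptor, was higher in the kidney (log2 fold change 1.53, SE 0.11, adjusted p = 0.00013 by edgeR's quasi-likelihood test). So was Gdf15, a distant member of the TGF-beta family whose receptor GFRAL signals through RET, at between 1.18 and 2.61 CPM in the kidney and 0.067 and 0.311 CPM in the Ahnak KO and WT ureter. Genes higher in the ureter were the co-receptors Gfra3 (-4.88, SE 0.64, adjusted p = 0.0015) and Gfra2 (-1.61, SE 0.25, adjusted p = 0.0029) and the ligand Artn, which signals through GFRA3 (-2.22, SE 0.43, adjusted p = 0.0074), all by the same edgeR test.

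The Gfra3 level was 9.42 CPM in the Ahnak KO ureter and 4.88 CPM in the WT ureter, with at most 0.394 CPM in a kidney library. Gfra2 had 18.9 and 30.4 CPM in the Ahnak KO and WT ureter and between 6.23 and 8.91 CPM in the kidney. Markers of Schwann cells, which express members of this receptor family, were also higher in the ureter: the 9 genes summed to 194 and 162 CPM in the Ahnak KO and WT ureter and to between 44.2 and 47.7 CPM in the kidney. Sox10, their defining gene, had 7.36 and 7.98 CPM in the ureter and at most 0.579 CPM in the kidney. The 16 markers of autonomic neurons and chromaffin cells summed to 31.9 and 25.1 CPM in the ureter and 16.8 to 24.8 CPM in the kidney. The part of nerve cells in these values was not tested.

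Adaptors and kinases of the RAS and PI3K arms, which many receptors share, were called at shares near those of all genes (23.7% and 21.4%). Of 30 genes, 5 were higher in the kidney, 7 were higher in the ureter and 18 were not called, with a median log2 fold change of -0.01. The adaptors Dok4 (0.81, SE 0.12, adjusted p = 0.0029) and Gab2 (0.78, SE 0.13, adjusted p = 0.0038) and the adaptor Grb10 (0.52, SE 0.14, adjusted p = 0.028) were the 3 highest in the kidney by edgeR's quasi-likelihood test. The kinases Src (-0.97, SE 0.09, adjusted p = 0.00038) and Mapk3, which encodes ERK1 (-0.94, SE 0.09, adjusted p = 0.00048), and the GTPase Hras (-0.78, SE 0.17, adjusted p = 0.012) were the 3 highest in the ureter by that test.

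Of the 12 ureteric tip genes downstream of RET, 9 were higher in the kidney, 1 was higher in the ureter and 2 were not called. Their median log2 fold change was 1.61. Over all genes tested 23.7% were called higher in the kidney and 21.4% higher in the ureter. The part of RET signalling in these differences was not tested. The organic anion transporter Slco4c1 had between 10.9 and 13.5 CPM in the kidney and 0 counts in both ureter libraries, at least 115-fold higher in the kidney when the ureter is set to the floor of 3 counts in the smaller library. The protease gene Adamts18 had a log2 fold change of 2.31 (SE 0.33, adjusted p = 0.0021 by edgeR's quasi-likelihood test). The 1 gene called higher in the ureter was Mmp14, a membrane-bound matrix protease (-0.83, SE 0.11, adjusted p = 0.0016 by the same edgeR test).

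Other genes of ERK feedback were called in both directions. Of 12 genes, 3 were higher in the kidney, 4 in the ureter and 5 were not called, with a median log2 fold change of -0.35. Il17rd, a membrane inhibitor of FGF and ERK signalling, was the highest in the kidney (2.17, SE 0.16, adjusted p = 0.00014 by edgeR's quasi-likelihood test), followed by the receptor inhibitor Lrig1 (1.22, SE 0.17, adjusted p = 0.0018) and the Sprouty relative Spred1 (0.65, SE 0.11, adjusted p = 0.0048), both by that edgeR test. Higher in the ureter were Phlda1 (-2.29, SE 0.12, adjusted p = 3.7e-05), the ERK phosphatase Dusp5 (-1.75, SE 0.27, adjusted p = 0.0029) and the EGF receptor inhibitor Errfi1 (-1.63, SE 0.29, adjusted p = 0.0053) by edgeR.

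Regulators of Gdnf expression and of bud outgrowth were mostly higher in the kidney, 23 of 32, with 6 higher in the ureter and 3 not called. Over all genes tested 23.7% were called higher in the kidney and 21.4% higher in the ureter. The median log2 fold change of these regulators was 1.80, or 1.76 with genes at 0 in both ureter libraries set to their bound. Lhx1, a transcription factor of the ureteric bud and early nephron, had between 27.7 and 37.8 CPM in the kidney and 0 counts in both ureter libraries, at least 323-fold higher against the 3-count floor. Sall1 and Eya1, which act in the cap mesenchyme upstream of Gdnf, had log2 fold changes of 8.07 (SE 0.49, adjusted p = 7.1e-05) and 6.02 (SE 0.31, adjusted p = 4.1e-05) by edgeR's quasi-likelihood test.

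The growth factor Fgf7 (-5.18, SE 0.23, adjusted p = 2.4e-05) and the angiotensin receptor Agtr2 (-3.27, SE 0.11, adjusted p = 1.1e-05) were higher in the ureter by edgeR's quasi-likelihood test. In the kidney genotype comparison none of the 94 genes of the 5 lists that could be tested was called by edgeR, and 3 had an unadjusted p under 0.05, against 1.38% of all genes. In the ureter 7 of 90 list genes were lower and 2 higher by more than 2-fold in Ahnak KO, near the 5.75% and 4.5% of all genes.

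**Figure D4:**
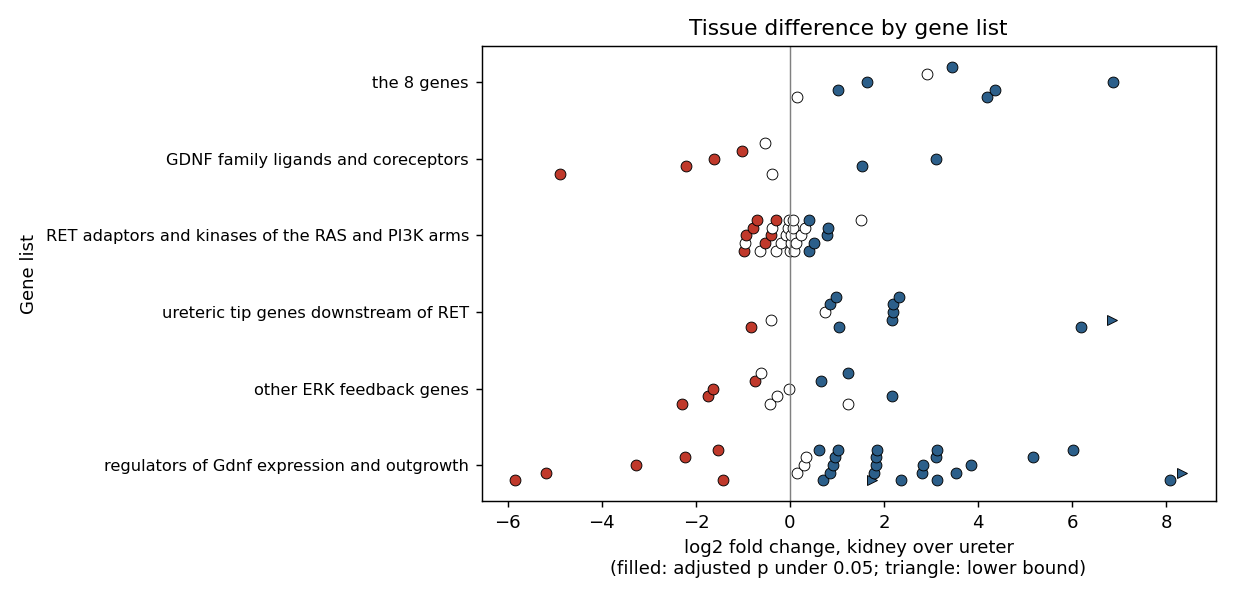
Log2 fold change of kidney over ureter for the 8 genes and for each gene tested of the 5 lists, filled where the adjusted p was under 0.05 (blue higher in kidney, red higher in ureter) and as a triangle at the lower bound where both ureter libraries had 0 counts. The 8 genes and the regulators lie mostly right of 0, the adaptors and kinases lie around 0, and the other GDNF family genes lie on both sides.

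The genes whose levels ran most like each member were found by the root mean square difference of centred log2(CPM + 0.5) over the 6 libraries, among 13972 genes. The nearest to Gdnf were Sostdc1 (0.16), Hnf4a (0.22) and Lama1 (0.27), and the nearest to Ret were Col4a3 (0.13), Pax8 (0.15) and Hmga2 (0.17). Gfra1 was nearest to Rprm (0.13), Igsf11 (0.16) and Lgr5 (0.17). For Etv4 they were Hoga1 (0.10), Arnt2 (0.13) and A730017C20Rik (0.14), and for Etv5 they were Mat2a (0.05), Jmjd4 (0.06) and Trank1 (0.07).

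Among the Sprouty genes, Spry2 was nearest to Tcerg1l (0.07), Eaf2 (0.09) and Cldn34c1 (0.10), and Spry4 to Enc1 (0.06), Lpin2 (0.07) and Kdm2b (0.07). Spry1 had no such close neighbour, its nearest being Gm3055 (0.46), Ak4 (0.69) and Cxcl14 (0.73). The measure takes in the difference between kidney and ureter as well as the spread within the kidney. It is not scaled for how widely a gene varies, so genes that vary little come close to many others. The wide range of Spry1 rests largely on the Ahnak KO ureter library, with 50 counts.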

How the data were processed

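Bulk RNA-seq libraries of PN1 mouse kidney (2 Ahnak KO, 2 WT) and ureter (1 Ahnak KO, 1 WT) were grouped by the treatment and tissue labels. The deposited table gives estimated counts as whole numbers, FPKM and TPM per gene, all computed by the authors. The paper's methods name Cutadapt, STAR and Cufflinks on GRCm39, whereas the submitters' processing notes name Trimmomatic 0.38, HISAT2 2.1.0, StringTie 1.3.4b and mm10. Which of these made the table could not be settled, and the estimated counts need not be reads counted one by one. The extraction text in the labels also mentions a premolar and PDL cells, which is why tissue markers were checked.

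Counts were scaled by TMM and tested with edgeR 4.0.16 in R 4.3.3 (filterByExpr, quasi-likelihood, Benjamini-Hochberg over all genes tested, called at an adjusted p under 0.05), a test planned for read counts. Kidney against ureter used all 6 libraries with genotype as a term (3 residual degrees of freedom), and Ahnak KO against WT kidney used 4 libraries (2 residual degrees of freedom). Each SE is approximate, obtained by dividing the size of the log2 fold change by the root of its F statistic. The ureter genotypes were compared as log2(CPM + 0.5) without a test, scaled by TMM over those libraries alone, and exact binomial 95% intervals of the count ratio cover counting error only. Depth sets the limits, 3 counts being 0.0421 to 0.101 CPM. Alternatives were DESeq2 1.42.0, limma 3.58.1 on FPKM, other filters, other scalings and left-out libraries. The edgeR fits of the tissues and of the kidney genotypes were tried on simulated counts with less spread than these data. The ureter ratios, their intervals and the added fit were not tried in that way.

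Named genes are the 8 genes, the 3 called genes highest in each tissue of each list with a mean of at least 1 CPM, the 3 nearest genes of each member, the markers, and Ahnak. Of the genes this rule names, 2 are not reported here. The genes, lists and markers were chosen with earlier results of these data known. Of the 10 marker lists, the summed tubule and podocyte markers were 1442 to 1904 CPM in kidney and 45.3 to 46.5 CPM in ureter, and adrenal cortex markers were at most 8.24 CPM in any library. Motifs were searched in RefSeq windows by exact match. Gene positions are from GENCODE M21 on GRCm38, while the build of the counts is not settled.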

Additional observations from a re-analysis of the deposited data

Results flagged for a closer look

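Etv4 was singled out because its genotype difference had opposite signs in the tissues. The same held for Gfra1, Etv5, Spry1 and Spry2, and the kidney estimate of Etv4 was smaller than its SE. In the kidney both Ahnak KO libraries lay below both WT libraries (log2 fold change -0.0929, SE 0.11), and in the ureter the Ahnak KO library was above the WT library (log2 ratio of CPM + 0.5 of 0.84). The difference of the genotype effects, ureter minus kidney, was 1.04 (SE 0.21) with an adjusted p of 0.18 by edgeR's quasi-likelihood test of the fit added after seeing the data, so it did not pass the threshold.

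Spry1 was singled out because the same interaction test passed the threshold. The difference of its log2 fold changes, ureter minus kidney, was -4.52 (SE 0.26, adjusted p = 0.015 by edgeR's quasi-likelihood test), under the assumption that the lone ureter libraries vary like the kidney libraries. The kidney effect was 0.07 on the log2 scale and the ureter value was -4.45 in that fit.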

How the results depend on the processing

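Of the 8 genes, 6 or 7 were called higher in kidney under the 16 other settings and 0 higher in ureter, 0 were called between the kidney genotypes under 12 settings, and 1 or 2 were past 2-fold in the ureter under 6 settings. The 2 came with log2(CPM + 0.1), where Gdnf joined Spry1 and where 1142 genes were higher and 1629 lower, against 725 and 926. Of the genes higher in kidney, limma gave 6360 on log2(FPKM + 1) and 6557 on log2(FPKM + 0.1), against 3992, and the cause was not tested. With both ureter libraries kept, Spry1 passed the threshold by DESeq2 (adjusted p = 0.014), by limma with either pseudocount and by edgeR under the strictest filter. Its adjusted p in such fits ran from 0.0068 by limma on log2(FPKM + 1) to 0.086 by edgeR without Ahnak KO kidney replicate 2. The other alternatives that passed held a single ureter library, so the distance between the ureter libraries did not enter. Gdnf, with 9 counts in the Ahnak KO ureter, could not be tested under the filter of at least 10 counts in every library, where Spry1 was called and the number stayed 6, nor compared in the ureter under a minimum of 50 counts. Spry2 turned negative in the tissue comparison in WT libraries only (-0.28) and ranged from -0.29 to 0.67 with single libraries left out.

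Between the kidney genotypes, 2 genes were lower and 0 higher by edgeR. DESeq2 gave 25 higher and 19 lower, limma on FPKM with either pseudocount and all 6 libraries in one fit gave 0 lower, and the filter of at least 10 counts in every library gave 1 lower. Leaving out a library gave 1 to 24 higher and 2 to 63 lower, the highest without Ahnak KO kidney replicate 2. The replicate block gave 0 lower, and a crossed replicate block, chosen after seeing the data, gave 1 lower. Whether the replicate numbers pair the samples was not settled. The deviations of same-numbered libraries had a correlation of -0.28 over genes. That value rests on a single difference in each genotype and cannot decide the question. Gdnf turned from -0.02 to 0.0039 with the replicate block and to 0.0038 with the crossed one.

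With all 6 libraries in one fit the estimates changed sign for Gfra1 (-0.10), Etv4 (0.21), Etv5 (0.016), Spry1 (-1.05) and Spry2 (-0.10), since the ureter libraries then enter the genotype effect. With single libraries left out the kidney estimates ran from -0.24 to 0.24 for Gdnf, from -0.30 to 0.20 for Ret, from -0.16 to 0.33 for Gfra1, from -0.19 to 0.024 for Etv5 and from -0.048 to 0.18 for Spry1, and none was called. In the ureter, log2(FPKM + 0.1) gave 1840 genes lower and turned Etv5 to -0.000897. The fit with the spread of the kidney libraries, chosen after seeing the data, called 35 genes higher and 35 lower. No alternative could replace the missing ureter replicate.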

Other observations

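Beyond the 8 genes, the pathway lists held single values that no comparison above describes. Lhx1 had an unadjusted p of 0.036 and Cxcr4, the chemokine receptor expressed at the bud tips, of 0.023 in edgeR's test of the kidney genotypes, each lower in both Ahnak KO libraries, and neither passed adjustment (adjusted p = 0.9999 in edgeR). Cxcr4 had 16.5 and 17.9 CPM in the Ahnak KO kidney and 21.9 and 27.8 CPM in the WT kidney. Agtr2 was higher in both Ahnak KO kidney libraries, at 70.7 and 73.6 CPM against 61.0 and 50.1 CPM (unadjusted p = 0.033, adjusted p = 0.9999 in edgeR). These 3 genes were named after their values were seen.

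In the ureter libraries, compared here without a test, the Sprouty relative Spred3 had 5.65 CPM in Ahnak KO and 18.2 CPM in WT, and Frem1, a matrix protein of the bud basement membrane, had 11.2 and 32.3 CPM. Sox8 went the other way, with 3.06 CPM in Ahnak KO and 1.11 CPM in WT. These genes too were named after their values were seen.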
